A study of Mus musculus with 25 samples.

Results

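Histone deacetylase genes of the classical, zinc-dependent family were examined in mouse prefrontal cortex. The 10 members (Hdac1, Hdac2, Hdac3, Hdac4, Hdac5, Hdac6, Hdac7, Hdac8, Hdac9 and Hdac11) were found by symbol, through their Ensembl identifiers in the GENCODE M21 annotation, among 23990 genes in the deposited table. Each member was present, and each passed the minimum of 5 reads on average. Hdac10 of the same family was not among the members and was not examined. The study is a total RNA sequencing series of 25 samples from C57BL/6 wild type mice aged 10 weeks, 13 male and 12 female, in 6 groups that combine sex with social defeat stress and with a compound treatment. Social defeat is a stressor in which a mouse is exposed to aggression by another mouse.

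Values are given for 5 libraries, replicates 1 to 5 of the group M-stress/vehicle: wild type C57BL/6 males aged 10 weeks that received vehicle, the control for dihydrocaffeic acid/malvidin-glucoside, before and during social defeat stress. The table's columns carry letters with numbers in place of group names. The number 5 occurs under 1 letter only, and among the sample labels only in M-stress/vehicle, so that letter was taken as this group; the other 20 columns could not be tied to a group and were not used. With 1 group there was no contrast of stress, of compound or of sex, and everything below is the level of each gene and its spread between libraries of the same group. Whether the libraries stem from separate mice is not stated, so p-values measure the spread between these libraries alone, and some of that spread may be technical. Assigned reads numbered 34565147 to 44265039 per library, and 3 reads were worth 0.0673 to 0.0870 reads per 1e6 (CPM).

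Histone deacetylases remove acetyl groups from lysines, on histone tails and on other proteins, and are generally associated with reduced transcription where they act on chromatin. Class I enzymes (Hdac1, Hdac2, Hdac3, Hdac8) are mostly nuclear; Hdac1 and Hdac2 work as the catalytic subunits of the Sin3, NuRD and CoREST complexes, and Hdac3 in the NCoR complex. Class IIa proteins (Hdac4, Hdac5, Hdac7, Hdac9) have weak catalytic activity of their own, bind MEF2 transcription factors, and leave the nucleus when kinases such as the calcium/calmodulin-dependent ones phosphorylate them and 14-3-3 proteins bind. Hdac6 of class IIb deacetylates tubulin in the cytoplasm, and Hdac11 is the sole member of class IV. In rodent brain these genes have been studied in memory, drug reward and responses to chronic stress.

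Summed per length, transcripts of class I and class IIa took similar shares of the members' RNA, followed by Hdac11 of class IV, and Hdac6 of class IIb took the smallest share. Class IIb is Hdac6 alone here, because Hdac10 was not among the members, and all shares are of the members' sum only. Which of the first classes led depended on the length used. Levels are compared between genes only as RPKM, the CPM per kilobase of annotated exon, and within a gene as CPM. The 4 class I genes summed to 42.7 ± 1.29 RPKM (SD, n = 5), or 35.7% of the members' sum. The 4 class IIa genes summed to 38.3 ± 3.47 RPKM, or 31.9%, and Hdac11 alone reached 24.9% and Hdac6 7.43%. With the longest annotated transcript as the length, chosen after the data were seen, class I had 33.4% and class IIa 35.8%, and class IIa was the higher in 3 of 5 libraries. The sum over the 10 genes was 126.0, 122.3, 118.5, 111.7 and 120.2 RPKM in replicates 1 to 5. Replicate 1 was highest and replicate 4 lowest in that sum, and the class IIa sum had the same highest and lowest library, at 42.3, 40.6, 36.5, 33.5 and 38.4 RPKM.

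**Figure D1:**
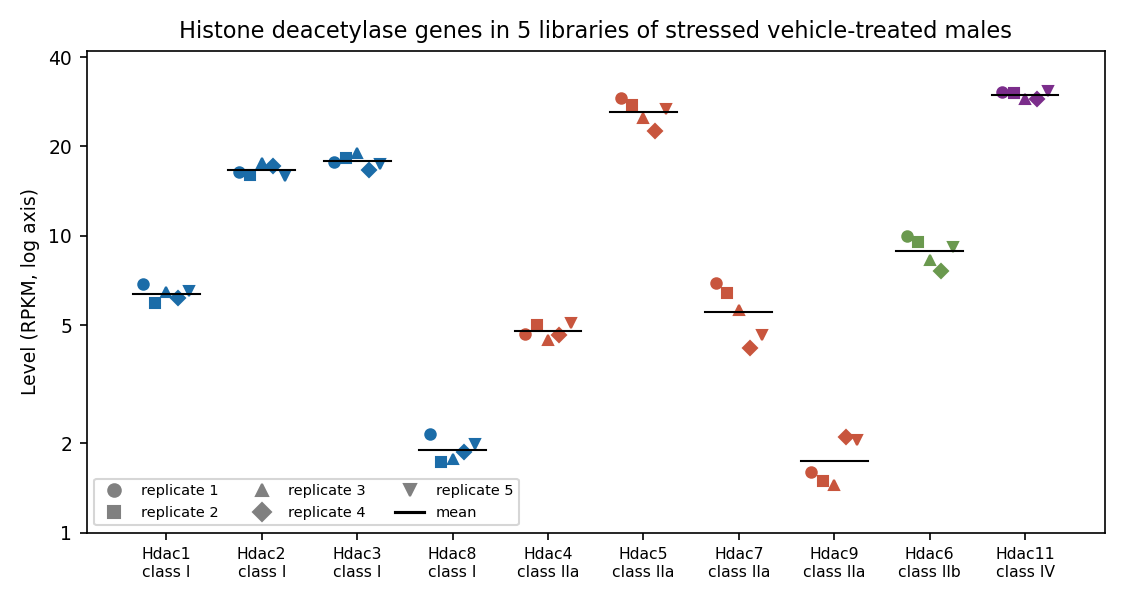
Level of each gene in RPKM on a log axis, with a marker shape for each of the 5 libraries, a bar at the mean and colour by class. Hdac11 (mean 29.8 RPKM) and Hdac5 (26.2 RPKM) lie highest, Hdac8 (1.9 RPKM) and Hdac9 (1.74 RPKM) lowest, and the 5 points of Hdac7 and of Hdac9 are the most widely spaced.

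Class IIa held the member of lowest level per length, Hdac9, one of the highest, Hdac5, and the 2 genes with the widest spread, Hdac7 and Hdac9. Hdac5 (ENSMUSG00000008855), whose mouse protein restrains MEF2 targets and has been studied in responses to chronic stress, lies at chr11:102194432-102230166 on the minus strand of GRCm38. It had 256.0, 242.6, 218.9, 198.4 and 234.1 CPM in replicates 1 to 5, or 26.2 ± 2.53 RPKM. Replicate 1 stood highest and replicate 4 lowest, 1.29-fold apart.

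Hdac7 (ENSMUSG00000022475), known in mice for its roles in blood vessel formation and thymocyte development, lies at chr15:97792664-97844502 on the minus strand. It had 46.8, 43.5, 37.9, 28.3 and 31.2 CPM in replicates 1 to 5, or 5.56 ± 1.16 RPKM. Replicates 1 and 2 were high and replicates 4 and 5 low, with a span of 1.65-fold, the widest of the 10 members.

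Hdac9 (ENSMUSG00000004698), which also encodes a short form without the catalytic domain, lies at chr12:34047580-34917095 on the minus strand. It had 23.5, 22.0, 21.3, 30.8 and 30.2 CPM, or 1.74 ± 0.313 RPKM, the lowest level per length of the 10. Its high libraries were replicates 4 and 5, the pair in which Hdac7 was lowest. Hdac7 over Hdac9, a ratio of CPM values chosen after those values were seen, was 1.99, 1.98, 1.78, 0.918 and 1.03 in replicates 1 to 5. Hdac7 reads outnumbered those of Hdac9 clearly in replicates 1, 2 and 3, and reads of both genes were about equal in replicates 4 and 5. This ratio compares libraries and takes no account of gene length, so it does not rank the levels of the genes. Per length, Hdac7 was the higher in replicates 4 and 5 too, at 4.19 and 4.63 RPKM against 2.10 and 2.06 RPKM for Hdac9.

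Hdac4 (ENSMUSG00000026313), a class IIa repressor with known roles in bone growth and in synaptic function, lies at chr1:91928779-92195699 on the minus strand. It had 73.9, 79.4, 70.6, 73.0 and 80.4 CPM, or 4.77 ± 0.268 RPKM, and its libraries stayed within 1.14-fold. A long noncoding RNA gene on the opposite strand, Gm26720, covers 3536 bases (22.4%) of its exons. Gm26720 is not in the deposited table and has no level here. Since no source states how the counting treated strand, reads of the pair cannot be told apart.

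The sequences around the transcription starts are shown for the 4 members with the widest spread and for the steadiest one, Hdac11, because their reads moved differently across the same 5 libraries. RefSeq windows (GRCm38.p6) of 250 bases before to 50 bases after a start were at hand for 8 of the 10 members, 12 windows in all. Where a gene had several windows, the one at the start farthest upstream is printed. Capitals mark matches, on either strand, to any of 4 motifs, with overlaps allowed. The GC box was searched as GGGCGG. The CCAAT box was searched by those 5 letters. The MEF2 site was searched as C or T, then TA, then 4 letters that are each A or T, then TA, then A or G. An E-box was searched as CACGTG.
Hdac7, chr15:97844453-97844752, minus strand: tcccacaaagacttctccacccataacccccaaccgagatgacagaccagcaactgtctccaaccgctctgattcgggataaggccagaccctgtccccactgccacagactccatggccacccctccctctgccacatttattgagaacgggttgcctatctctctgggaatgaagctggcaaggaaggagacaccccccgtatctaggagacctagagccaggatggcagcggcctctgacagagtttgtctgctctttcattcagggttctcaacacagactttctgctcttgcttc
Hdac5, chr11:102230123-102230422, minus strand: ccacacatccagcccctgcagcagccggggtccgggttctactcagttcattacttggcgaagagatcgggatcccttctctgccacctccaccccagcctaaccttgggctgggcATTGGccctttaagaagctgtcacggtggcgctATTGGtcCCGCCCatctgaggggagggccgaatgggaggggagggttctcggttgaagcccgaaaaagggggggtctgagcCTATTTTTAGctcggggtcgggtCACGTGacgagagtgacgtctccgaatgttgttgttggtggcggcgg
Hdac6, chrX:7947840-7948139, minus strand: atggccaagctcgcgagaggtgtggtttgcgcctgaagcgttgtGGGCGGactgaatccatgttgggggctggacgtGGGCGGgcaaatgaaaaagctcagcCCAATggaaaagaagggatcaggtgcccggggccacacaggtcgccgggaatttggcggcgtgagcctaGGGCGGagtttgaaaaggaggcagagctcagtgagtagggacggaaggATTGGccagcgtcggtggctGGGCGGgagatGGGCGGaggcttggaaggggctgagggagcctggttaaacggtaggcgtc
Hdac9, chr12:34917046-34917345, minus strand: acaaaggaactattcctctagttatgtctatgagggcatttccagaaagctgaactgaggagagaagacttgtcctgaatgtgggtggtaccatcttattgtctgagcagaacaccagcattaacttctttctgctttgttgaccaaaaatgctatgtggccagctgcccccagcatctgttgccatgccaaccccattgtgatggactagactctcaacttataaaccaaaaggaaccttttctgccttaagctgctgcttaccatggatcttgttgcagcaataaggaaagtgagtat
Hdac11, chr6:91156565-91156864, plus strand: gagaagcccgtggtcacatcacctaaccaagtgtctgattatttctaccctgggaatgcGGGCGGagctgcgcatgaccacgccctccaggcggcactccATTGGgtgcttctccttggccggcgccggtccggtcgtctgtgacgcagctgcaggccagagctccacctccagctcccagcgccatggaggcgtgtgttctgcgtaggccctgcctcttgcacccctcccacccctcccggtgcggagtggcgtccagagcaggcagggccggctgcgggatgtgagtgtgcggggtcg
The Hdac5 window held the only MEF2 match and the only E-box of the 12 windows, and the matches start 20 bases before and 3 bases after the transcription start. Among all 32851 windows of the table, 3.19% held a MEF2 match and 7.15% an E-box. The Hdac6 window held 5 GC boxes, as did the window of Hdac4, which is not printed. At least 1 GC box stood in 6 of the 12 windows, against 35.7% of all windows. A CCAAT box stood in 5 of the 12 windows, against 37.4% of all windows, and no window held the cAMP response element TGACGTCA, which 1.79% of all windows held. The Hdac9 window printed above and its other window were poor in G and C, at 44.0% and 45.3%, with 0 and 3 CG dinucleotides, while all windows had a median of 52.7% and 7. The Hdac7 window printed above held none of these motifs, and 1 of its other 3 windows held a GC box. The printed Hdac7 window had 54.7% G and C with 6 CG dinucleotides. Its other windows had 73.7%, 65.7% and 60.7%, with 31, 35 and 5. Such matches describe the letters and do not show that a factor binds.

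Hdac6 (ENSMUSG00000031161), the tubulin deacetylase of class IIb, lies at chrX:7930120-7947889 on the minus strand. It had 58.3, 55.3, 48.3, 44.2 and 53.4 CPM, or 8.92 ± 0.971 RPKM. Its order of libraries was that of Hdac5, highest in replicate 1 and lowest in replicate 4, with a span of 1.32-fold.

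Hdac11 (ENSMUSG00000034245), a class IV enzyme that also removes long fatty acyl groups from lysines, lies at chr6:91156665-91174692 on the plus strand. It had 117.3, 116.1, 111.4, 111.1 and 117.9 CPM, or 29.8 ± 0.851 RPKM, the highest level per length of the 10 and the smallest span, 1.06-fold. An unconfirmed transcript annotation on the opposite strand, Gm44002, covers 594 bases (15.4%) of its exons and is not in the deposited table.

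The class I genes Hdac1, Hdac2 and Hdac3 varied less between libraries than the class IIa genes Hdac5, Hdac7 and Hdac9, as described by their spread below. Hdac3 (ENSMUSG00000024454), the catalytic subunit of the NCoR complex, lies at chr18:37935844-37955016 on the minus strand. It had 72.0, 74.3, 77.1, 67.4 and 70.9 CPM, or 17.8 ± 0.901 RPKM. Hdac2 (ENSMUSG00000019777), whose mouse protein is known to limit synaptic plasticity and memory, lies at chr10:36974544-37001889 on the plus strand. It had 73.3, 71.6, 78.5, 76.7 and 71.3 CPM, or 16.6 ± 0.712 RPKM. Both genes were highest in replicate 3, and they parted in replicate 4, where Hdac3 was at its lowest and Hdac2 above its mean.

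Hdac1 (ENSMUSG00000028800), the close paralogue that shares the Sin3, NuRD and CoREST complexes with Hdac2, lies at chr4:129516104-129542713 on the minus strand. It had 23.7, 20.4, 22.4, 21.2 and 22.5 CPM, or 6.39 ± 0.364 RPKM. This level is uncertain, because the processed pseudogenes Gm10093, AC125456.1 and Gm4864 match its transcripts at 99.4%, 96.3% and 94.6% identity over at least 1444 aligned bases. Gm10093 itself was counted at 0.0448 to 0.578 CPM. Hdac8 (ENSMUSG00000067567), known for deacetylating the cohesin subunit Smc3, lies at chrX:102284639-102505359 on the minus strand and had 10.4, 8.39, 8.54, 9.05 and 9.60 CPM, or 1.9 ± 0.173 RPKM.

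Ordered by level per length, the genes ran Hdac11, Hdac5, Hdac3, Hdac2, Hdac6, Hdac1, Hdac7, Hdac4, Hdac8 and Hdac9. Of the 9 neighbouring pairs, 5 kept their direction in 5 of 5 libraries. The neighbours that did not were Hdac3 and Hdac2 (4 of 5 libraries), and Hdac1 and Hdac7, Hdac7 and Hdac4, and Hdac8 and Hdac9 (3 of 5 each). In an exact two-sided sign-flip test over 5 libraries the smallest possible p is 0.063, so no pair could pass 0.05, and the smallest adjusted p over the 9 pairs was 0.1125. The order depends on the length used. With the longest annotated transcript in place of all exons, chosen after the data were seen, it ran Hdac11, Hdac5, Hdac2, Hdac3, Hdac1, Hdac6, Hdac4, Hdac7, Hdac8 and Hdac9, and Hdac11 exceeded Hdac5 in only 3 of 5 libraries. Transcripts annotated per gene number 20 for Hdac5, 13 for Hdac7, 12 for Hdac4 and 10 for Hdac9, and the counts per gene do not separate them, including the short form of Hdac9.

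The reads of each of the 10 members varied between libraries beyond counting error, and so did those of most genes. The test was a chi-square test of reads in proportion to library size, with 4 degrees of freedom and Benjamini-Hochberg adjustment over 19239 genes. It called 10 of 10 members and 14308 of all 19239 genes, or 74.4%. Among the 10104 genes with at least the 366 reads of the lowest member, Hdac8, 87.4% were called, so the members' share is near the background and is no feature of this family. The adjusted p was 2.5e-67 for Hdac5, 2.1e-51 for Hdac7, 5.5e-26 for Hdac9 and 1.6e-18 for Hdac6. It was 2.6e-07 for Hdac4, 2.4e-05 for Hdac3, 0.00037 for Hdac2 and 0.0084 for Hdac11. The calls of Hdac8 (adjusted p = 0.020) and Hdac1 (adjusted p = 0.034) each rested on single libraries. Without replicate 1 the adjusted p of the same chi-square test was 0.306 for Hdac8 and 0.188 for Hdac1, and without replicate 2 it was 0.199 for Hdac1.

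The size of the spread separates the members more than the test does. The coefficient of variation (CV) that remained after counting error was subtracted had a median of 6.38% over the 10 members, against 8.25% over 14524 genes of at least 1 CPM, whose quartiles were 5.18% and 13.5%. Hdac7 was highest at 20.7%, above 89.2% of those genes, followed by Hdac9 at 17.7%, above 84.9%. Hdac6 had 10.7% and Hdac5 9.60%. Hdac8 had 7.45%, Hdac4 5.31%, Hdac3 4.69%, Hdac1 4.58% and Hdac2 3.87%. Hdac11, at 2.44%, was the steadiest. The median CV was 13.6% over the 4 class IIa genes, against 4.63% over the 4 class I genes, a description that rests on Hdac7, Hdac9 and Hdac5, since Hdac4 lay with class I. Hdac8 of class I and Hdac5 changed places without replicate 4, where the SD of log2 values was 0.15 for Hdac8 and 0.095 for Hdac5.

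**Figure D2:**
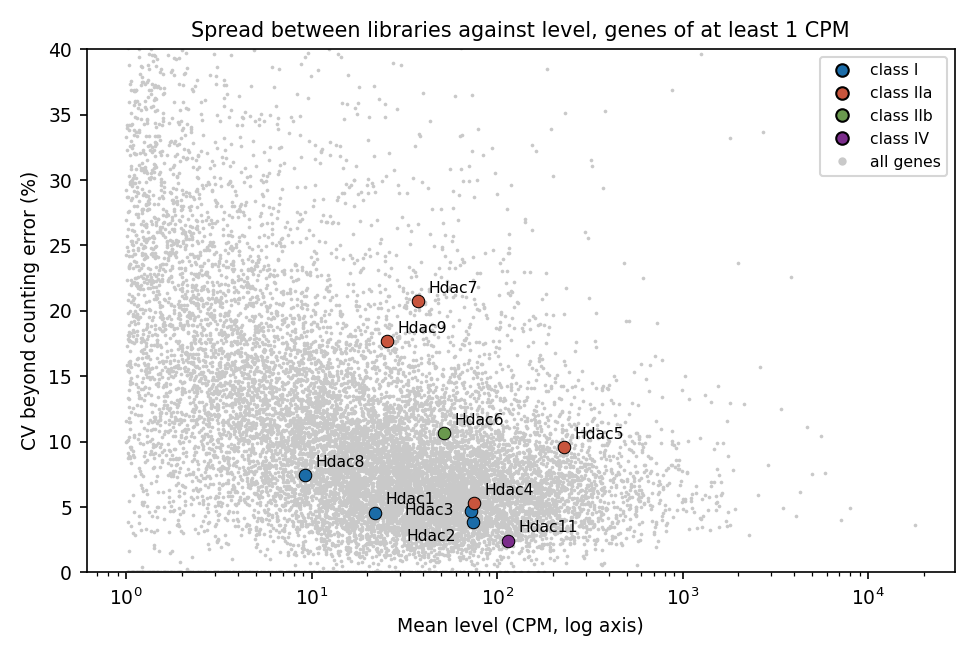
Spread between the 5 libraries, as the CV beyond counting error in percent, against mean level in CPM on a log axis; grey points are the 14524 genes of at least 1 CPM, and coloured points are the members by class. Hdac7 (20.7%) and Hdac9 (17.7%) lie above most genes of their level and Hdac11 (2.44%) below; 155 genes lie above the upper limit of the axis at 40%.

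The direction of the deviations differed between members within the same libraries. Replicate 1 was the highest library for 5 members, and replicate 4 the lowest for 5. In replicate 4, Hdac7 lay at -0.38 relative to its own mean on the log2 scale, Hdac6 at -0.22 and Hdac5 at -0.21, while Hdac9 lay at 0.29 and Hdac2 at 0.05. In replicate 1 the same 3 genes were at 0.34, 0.18 and 0.16, and Hdac9 at -0.10. In these libraries Hdac5 and Hdac6 sat on the side of Hdac7, and Hdac9 on the other. They did not in replicate 5, where Hdac7 lay at -0.24, Hdac5 at 0.03 and Hdac6 at 0.05, nor in replicate 3, where Hdac7 lay at 0.04, Hdac5 at -0.07 and Hdac6 at -0.10. With 5 libraries of 1 group no correlation was computed.

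**Figure D3:**
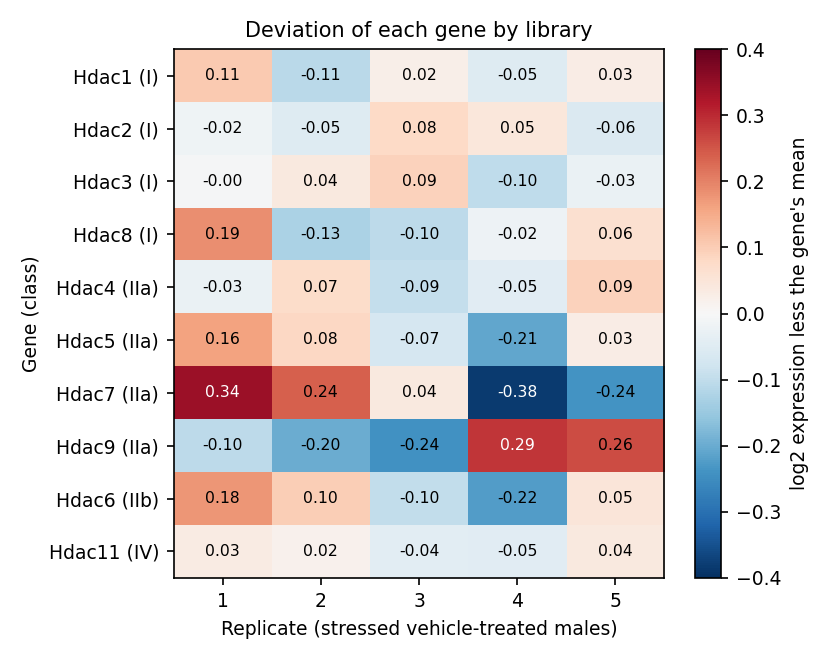
Deviation of each gene from its own mean log2 value in each of the 5 libraries, by colour and printed value. Hdac7, Hdac6 and Hdac5 are positive in replicate 1 (0.34, 0.18 and 0.16) and negative in replicate 4, where Hdac9 reaches 0.29; the row of Hdac11 stays between -0.05 and 0.04.

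Cell type markers moved across these libraries too, and their part in the members' spread was not tested. In bulk tissue, fewer cells of a type and less RNA per cell cannot be told apart. The defining markers of neurons (5 genes), excitatory neurons (5), astrocytes (7) and oligodendrocytes (10) were present with none at 0. Oligodendrocyte markers summed to 7708, 6631, 9433, 4320 and 4430 CPM in replicates 1 to 5, a span of 2.18-fold. All 10 genes of that list had replicates 4 and 5 as their lowest libraries, where Hdac7 was lowest and Hdac9 highest, and all 10 were highest in replicate 3, where Hdac7 was near its mean and Hdac9 lowest. Excitatory neuron markers summed to 5481, 5637, 5315, 6343 and 5994 CPM, highest in the same 2 libraries as Hdac9. Only 2 of the 5 genes had replicates 4 and 5 as their 2 highest libraries. Camk2a makes up most of the excitatory sum. Without it, a sum computed after the first was seen, the list had 2149, 2464, 2418, 2333 and 2399 CPM. That sum was lowest in replicate 1 and highest in replicate 2. General neuron markers ranged from 4290 CPM in replicate 1 to 5901 CPM in replicate 4. The sums of endothelial cell markers (6 genes) ranged from 198.1 CPM in replicate 3 to 243.3 CPM in replicate 4, where Hdac7 was lowest. Sums of microglia markers (6) ranged from 301.8 to 356.1 CPM, of astrocytes from 5492 to 6139 CPM and of inhibitory neurons (6) from 879.1 to 946.1 CPM. Markers of striatal projection neurons (6 genes, none at 0), a cell type of the neighbouring striatum, summed to 164.9 to 225.9 CPM.

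**Figure D4:**
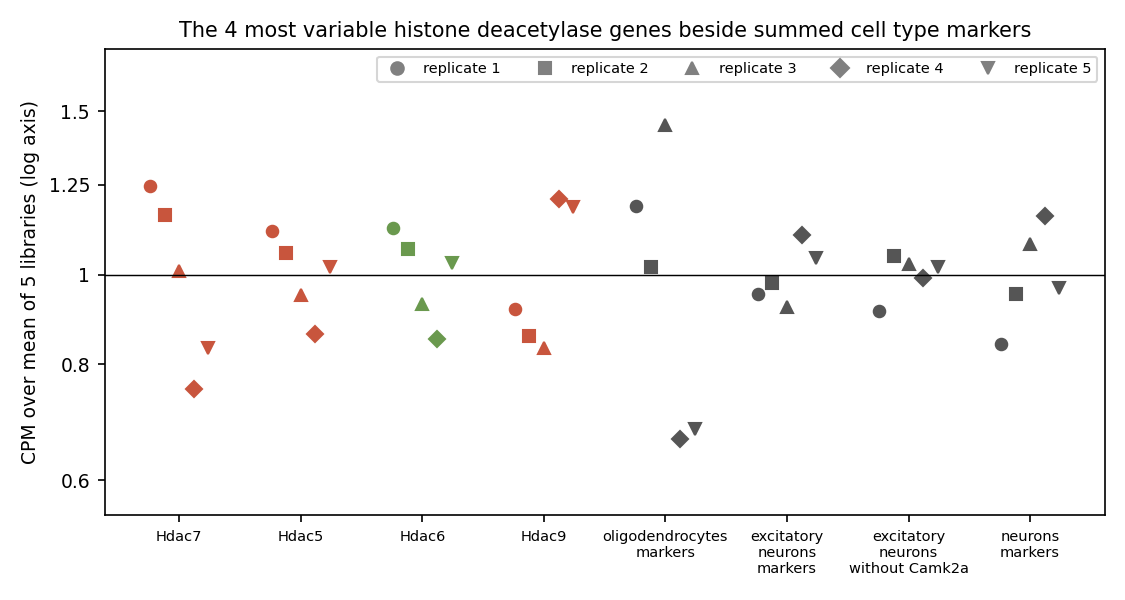
CPM of the 4 members with the widest spread and summed CPM of 4 marker lists, each over its own mean in the 5 libraries, on a log axis; marker shape gives the library, and the line at 1 is the mean. Hdac7 and the oligodendrocyte markers are lowest in replicates 4 and 5, where Hdac9 and the full excitatory neuron list are highest; oligodendrocyte markers peak in replicate 3, and the excitatory list without Camk2a is lowest in replicate 1.

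Genes rich in G and C moved with the libraries as well. With genes cut by GC into 10 bins of equal size, the highest bin had median deviations of 0.03, 0.07, -0.05, -0.06 and 0.00 on the log2 scale in replicates 1 to 5, and the lowest bin -0.03, -0.06, 0.04, 0.07 and -0.00. GC was taken from the longest annotated transcript of each gene. By it, Hdac7 (60.2% GC) and Hdac5 (59.8%) belong to the highest bin, and Hdac9 (45.0%) and Hdac2 (41.9%) to low ones. With GC and length trends removed from each library, an alternative chosen after the data were seen, the SD of log2 values was 0.26 for Hdac7, against 0.31 as deposited, and 0.25 for Hdac9, against 0.26. It was 0.093 for Hdac5, against 0.14, and 0.033 for Hdac2, against 0.061. The class I gene Hdac8 then had 0.13, above Hdac5, although its value as deposited, also 0.13, was below that of Hdac5.

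The genes whose 5 deviations lay nearest to those of Hdac7 were sought among 14523 others, as the root mean square difference of mean-centred log2 values. The nearest was Nrbp2, which encodes a pseudokinase, at 0.022, with 150.1, 137.6, 119.3, 87.5 and 101.0 CPM. Next came Gcfc2 (0.037), the long noncoding RNA gene Firre (0.039), Dot1l (0.040), which encodes the histone H3 lysine methyltransferase, and Mettl17 (0.040). The median over the 14523 genes was 0.31. These genes were picked as the nearest of 14523 over only 5 values, so they are a description, and co-variation with Hdac7 was not tested. Among the members, Hdac5 and Hdac6 were nearest to Hdac7, both at 0.19, and Hdac9 farthest at 0.48.

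The partners of these enzymes were read from 9 lists of 79 genes, of which 78 were in the table. The chi-square test called 64 of 78 (Benjamini-Hochberg adjusted p under 0.05), against 74.4% of all genes. Of the 10104 genes no shallower than Hdac8 it called 87.4%, so the share of the lists does not stand above that background. Some list genes, such as Sfn and Sap30, were shallower than Hdac8. By list, the test called 10 of 11 NuRD genes, 10 of 13 Sin3 genes, 4 of 7 CoREST genes and 4 of 5 NCoR genes. It called 3 of 3 MEF2 genes, 6 of 7 14-3-3 genes, 13 of 15 kinases of class IIa proteins, 8 of 10 histone acetyltransferases and 6 of 7 sirtuins. The median CV beyond counting error was 4.88% for the Sin3 list and 8.92% for the kinases, against 8.25% for all genes of at least 1 CPM.

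The class I complexes differed in the level of their leading subunits. Chd3, the remodelling ATPase of NuRD, had the highest level per length of its list at 112.3 ± 11.1 RPKM, with Mbd3 at 57.0 ± 3.55 RPKM and the histone chaperone Rbbp7 at 35.2 ± 3.61 RPKM. Rbbp7 had the widest span of the list, at 93.4, 97.6, 106.0, 119.3 and 96.2 CPM, highest in replicate 4. In the Sin3 list the Sin3 complex subunits Sap30l (24.8 ± 0.923 RPKM), Brms1l (15.6 ± 1.02 RPKM) and Brms1 (13.5 ± 0.459 RPKM) led, and Sap30, at 2.51 to 4.57 CPM, had the widest span.

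The CoREST demethylase Kdm1a stayed between 54.7 and 58.9 CPM and was not called (adjusted p = 0.082, chi-square test), and the corepressor Rcor2 stayed between 16.0 and 18.1 CPM (adjusted p = 0.21, chi-square test). Hmg20b, another gene of that list, had its widest span, from 13.0 to 17.6 CPM. The Hdac3 corepressor Ncor1 had 18.8 ± 0.935 RPKM, close to the 17.8 ± 0.901 RPKM of Hdac3 itself. Gps2 (12.1 ± 0.507 RPKM) and Tbl1xr1 (11.6 ± 0.794 RPKM) of the same complex lay below both.

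The factors and kinases that act with class IIa proteins included genes that split the libraries as Hdac9 did. Mef2c, a MEF2 transcription factor of excitatory neurons, had 496.5, 483.7, 482.0, 668.6 and 595.6 CPM. Its high libraries were replicates 4 and 5, as for Hdac9. Mef2d, at 41.0 ± 1.46 RPKM, was also highest in replicates 4 and 5, at 251.4 and 253.8 CPM, but stayed within 1.08-fold. Mef2a ranged from 149.6 to 179.7 CPM and was highest in replicate 3. How many of all genes were highest in replicates 4 and 5 was not counted, so the split is not particular to the genes named.

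Camk2a, the calcium/calmodulin-dependent kinase subunit of excitatory synapses, was the most abundant kinase of its list at 455.7 ± 56.8 RPKM and had 3332, 3174, 2897, 4010 and 3595 CPM. It too was highest in replicates 4 and 5, and it is itself a gene of the excitatory neuron marker list. Camk2b had 84.4 ± 3.43 RPKM, and Camk4, the nuclear kinase of this family, had 150.5, 176.1, 206.3, 243.8 and 174.9 CPM, the widest span of the list at 1.62-fold. The 14-3-3 genes Ywhae (267.6 ± 16.4 RPKM), Ywhag (258.7 ± 17.1 RPKM) and Ywhaz (242.5 ± 18.8 RPKM) were abundant and lay within 1.14- to 1.21-fold. Of these, Ywhag and Ywhaz also had replicates 4 and 5 as their highest libraries, while Ywhae was highest in replicate 3. Sfn was near 1.91 CPM.

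Among the enzymes that add acetyl groups, Kat2a (18.9 ± 0.592 RPKM), Kat7 (13.0 ± 0.512 RPKM) and Kat5 (9.92 ± 0.608 RPKM) had the highest levels, and Kat2b, at 18.5 to 26.2 CPM, the widest span. Among the NAD-dependent deacetylases, Sirt2, which is abundant in oligodendrocytes, had 139.1, 143.9, 154.6, 117.6 and 119.6 CPM, highest in replicate 3 and lowest in replicates 4 and 5 like the oligodendrocyte marker sum. Sirt3, the mitochondrial sirtuin, had 8.23 ± 0.479 RPKM. Sirt7, a nucleolar sirtuin, had 53.0, 47.1, 35.8, 33.9 and 37.4 CPM, with replicates 1 and 2 high as for Hdac7.

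**Figure D5:**
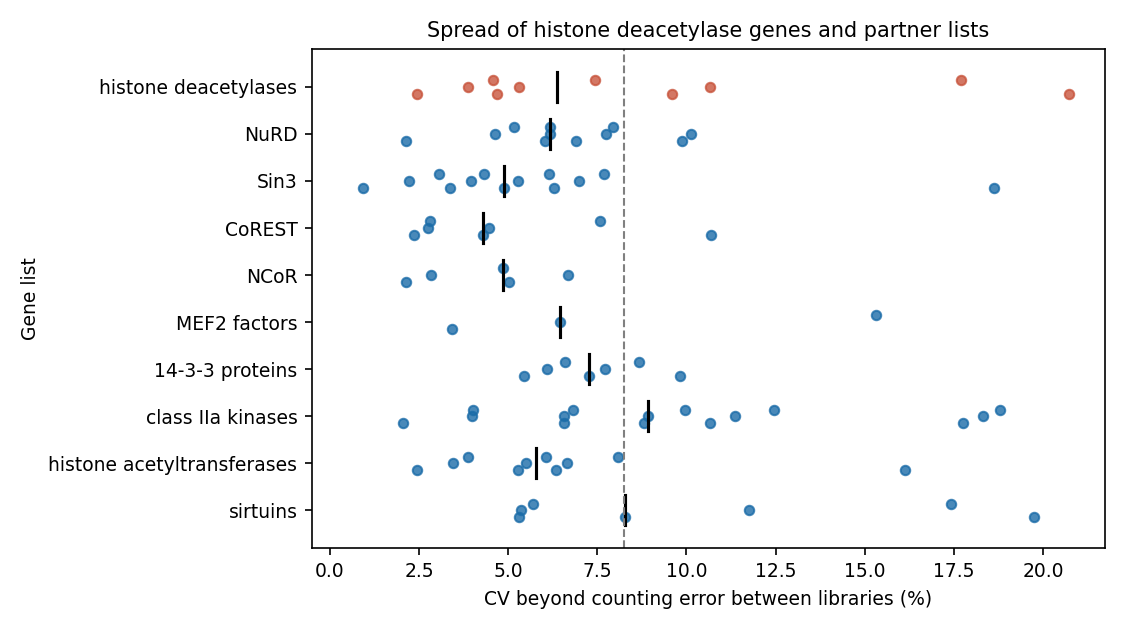
CV beyond counting error in percent for each gene of the members' list and of the 9 partner lists; points are genes, black bars are list medians, and the dashed line is the median of all genes of at least 1 CPM (8.25%). The members' median is 6.38%, and Hdac7 (20.7%) lies farthest right of the genes drawn.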

How the data were processed

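Total RNA of prefrontal cortex was sequenced. The submitters' processing notes name STAR 2.6.1d, SAMtools 1.9, featureCounts of Subread 1.6.3 and edgeR, with mm10/GRCm38; the strand setting is not stated there. The authors deposited log2 expression values per gene. In the 5 columns used, 100% of values came back as whole reads (within 1e-06) from log2((reads + 0.5)/effective library size × 1e6), and those reads and sizes were used here. Another 20 columns of values could not be tied to a sample and were not used.

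From the reads, CPM, RPKM (GENCODE M21 exon unions), SDs and a chi-square test per gene with Benjamini-Hochberg adjustment were computed (Python 3.11.15, scipy 1.17.1, numpy 2.4.6, pandas 2.3.3), for genes averaging at least 5 reads, and were checked on simulated counts. Similar transcripts were sought with BLAST 2.17.0 (at least 90% identity over at least 500 bases). Per list, the 3 genes of highest RPKM and the one of widest span were named; for likeness, the 5 genes nearest to the member of widest spread. Of the list genes this rule names, 2 are not reported here. Members and lists were chosen with earlier results of these data known. Depth limits precision: counting error was subtracted from each CV.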

Additional observations from a re-analysis of the deposited data

How the results depend on the processing

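No paired analysis was possible because the columns used belong to a single group. The numbers of genes called over all genes, the 10 members and the partner lists stayed within 1.5 times their values under total reads, median-of-ratios factors, filters of 20 reads or none, and without each replicate in turn. Without 1 replicate, 8 to 10 members, 58 to 64 partner genes and 12646 to 13125 of all genes were called. The order of the genes changed with the length: 6 of 9 neighbouring pairs then kept 1 direction per kilobase of the longest transcript, and 5 of 9 in CPM, but the pairs differ. On the longest transcript the shares were 33.4% for class I, 35.8% for class IIa and 5.92% for class IIb (Hdac6 alone). Among single genes, 3 calls were lost, those of Hdac1 and Hdac8 given above, and the SD of Hdac2 and of Hdac5 moved by over 1.5 times with GC and length trends removed. Other offsets (0.1 or 2 reads) were run for SDs only. Another scaling moved a library's median by at most 0.04 on the log2 scale. Levels under 0.0870 CPM in the shallowest library rest on 3 reads or fewer. The letter that stands for the group, the length used for RPKM, unstated strand and isoforms limit what levels mean; 5 libraries allow no exact p below 0.063.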
